A study of Mus musculus with 22 samples.

Results

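The RGS (regulator of G-protein signalling) genes Rgs2, Rgs4, Rgs7, Rgs7bp, Rgs8, Rgs9, Rgs10, Rgs14, Rgs16 and Rgs20 were followed through every library of a mouse striatum study. They were chosen by symbol and are 10 of the 55341 genes in the count tables. The choice was made with earlier results of these data known, so counts among the 10 beside shares of all genes are descriptions. The study pulled down ribosome-bound mRNA from neurons that express the dopamine receptor Drd1 (D1 neurons) and asked how it differs in a mouse model of fragile X syndrome, in which Fmr1 is disrupted. Each of 5 Fmr1 mutant animals (KO in the titles; numbers 2, 3, 9, 10 and 11) and 6 wild-type animals (WT; numbers 1, 4, 12, 13, 14 and 20) gave a library of the pulldown (IP) and a library of the cleared lysate it came from (input), 22 in all. Mice of both genotypes carried the EGFP-tagged ribosomal protein Rpl10a in Drd1-expressing medium spiny neurons, none were described as given a drug, and the labels used here give no age, sex or strain. The label "D1 neurons" also stands on the input libraries, although per the labels' protocols the input is lysate of whole striatum from which nuclei and insoluble membranes had been spun out.

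RGS proteins speed up the hydrolysis of GTP by G-protein alpha subunits and so shorten the signal of receptors coupled to Gi, Go and Gq. In striatal projection neurons such receptors include those for acetylcholine, opioids, endocannabinoids, adenosine and glutamate. Rgs2, Rgs4, Rgs8 and Rgs16 encode small proteins of the R4 family, of which RGS2 is known for its preference for Gq and for rapid induction by neuronal activity. Rgs7 and Rgs9 encode R7 proteins, which are stable only with the beta subunit encoded by Gnb5, and the long form of RGS9 is a known striatal protein. Rgs7bp encodes no RGS domain but the membrane anchor of R7 complexes. Rgs10 and Rgs14 encode R12 proteins, and RGS14 also holds back GDP-bound Gi through a GoLoco motif. Rgs20 encodes an RZ protein with a preference for Gz.

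All 10 genes had reads in every library. Total counts per library ran between 13759027 and 49669222 in KO IP, 9375611 and 82376192 in WT IP, 28438717 and 43276230 in KO input and 25164548 and 38270808 in WT input. The targeted gene Fmr1 lay at 9.44 to 13.2 CPM (counts relative to library size, scaled within an assay) in KO IP and 79.8 to 125 CPM in WT IP, and at 9.68 to 12.9 CPM in KO input and 51.6 to 63.4 CPM in WT input, so that all 22 libraries matched their genotype label. All 8 listed D1 markers were higher in IP than in input in KO (median log2 fold change 1.65) and in WT (1.33), and all 6 tested markers of D2 neurons were lower (medians -3.64 and -3.83). Listed markers of interneurons (8 of 8), astrocytes (7 of 7), oligodendrocytes (7 of 7), oligodendrocyte precursors (3 of 3) and microglia (8 of 8) were also all lower in IP in both genotypes. Mural markers were lower in IP for 3 of 4 in KO and 4 of 4 in WT, and endothelial markers for 2 of 4 in KO and 3 of 4 in WT. None of the 8 cortical excitatory markers was called either way. Their summed level set 4 animals apart, KO 3 and 9 and WT 1 and 12: it was 97.5 to 305 CPM in their IP and 81.6 to 361 CPM in their input, against 5.89 to 14.3 CPM in IP and 11.96 to 19.7 CPM in input of the other 7. Results that rest on these animals are given with and without them.

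Expression per kilobase of exon spanned more than 2 orders of magnitude among the 10 genes, with Rgs4 highest and Rgs16 lowest in all 4 groups. In IP, Rgs4 had 309 ± 20.1 CPM per kb in KO and 391 ± 60.2 in WT (SD, n = 5 and 6), and the anchor Rgs7bp followed at 246 ± 16.2 in KO and 239 ± 15.0 in WT. Rgs2 had 182 ± 43.2 CPM per kb in KO IP and 163 ± 23.0 in WT IP, and Rgs9 had 104 ± 14.2 and 110 ± 12.7. The same scale put Rgs20 at 43.2 ± 1.67 in KO IP and 46.6 ± 13.1 in WT IP, Rgs8 at 32.2 ± 3.47 and 33.7 ± 3.62, Rgs7 at 21.0 ± 1.5 and 22.5 ± 1.04, and Rgs10 at 17.0 ± 3.32 and 19.4 ± 3.38. Rgs14 had 6.28 ± 0.763 CPM per kb in KO IP and 9.11 ± 1.34 in WT IP, and Rgs16 had 0.986 ± 0.505 and 1.12 ± 0.712. Neighbours in this order were separated in every library of a group except that Rgs7 and Rgs10 overlapped in KO IP and WT IP, Rgs7bp and Rgs2 overlapped in KO IP, and Rgs20 and Rgs8 overlapped in WT IP. In input the upper part of the order was less clear: Rgs4, Rgs2 and Rgs7bp had 151 ± 10.96, 129 ± 30.1 and 125 ± 8.19 CPM per kb in KO input, where each overlapped the next. In WT input Rgs4 stood alone at 207 ± 21.8 CPM per kb, above Rgs7bp at 130 ± 8.51 and Rgs2 at 119 ± 19.4, which overlapped each other. Exon lengths here join all annotated isoforms, so a gene whose main isoform is short is placed too low.

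**Figure D1:**
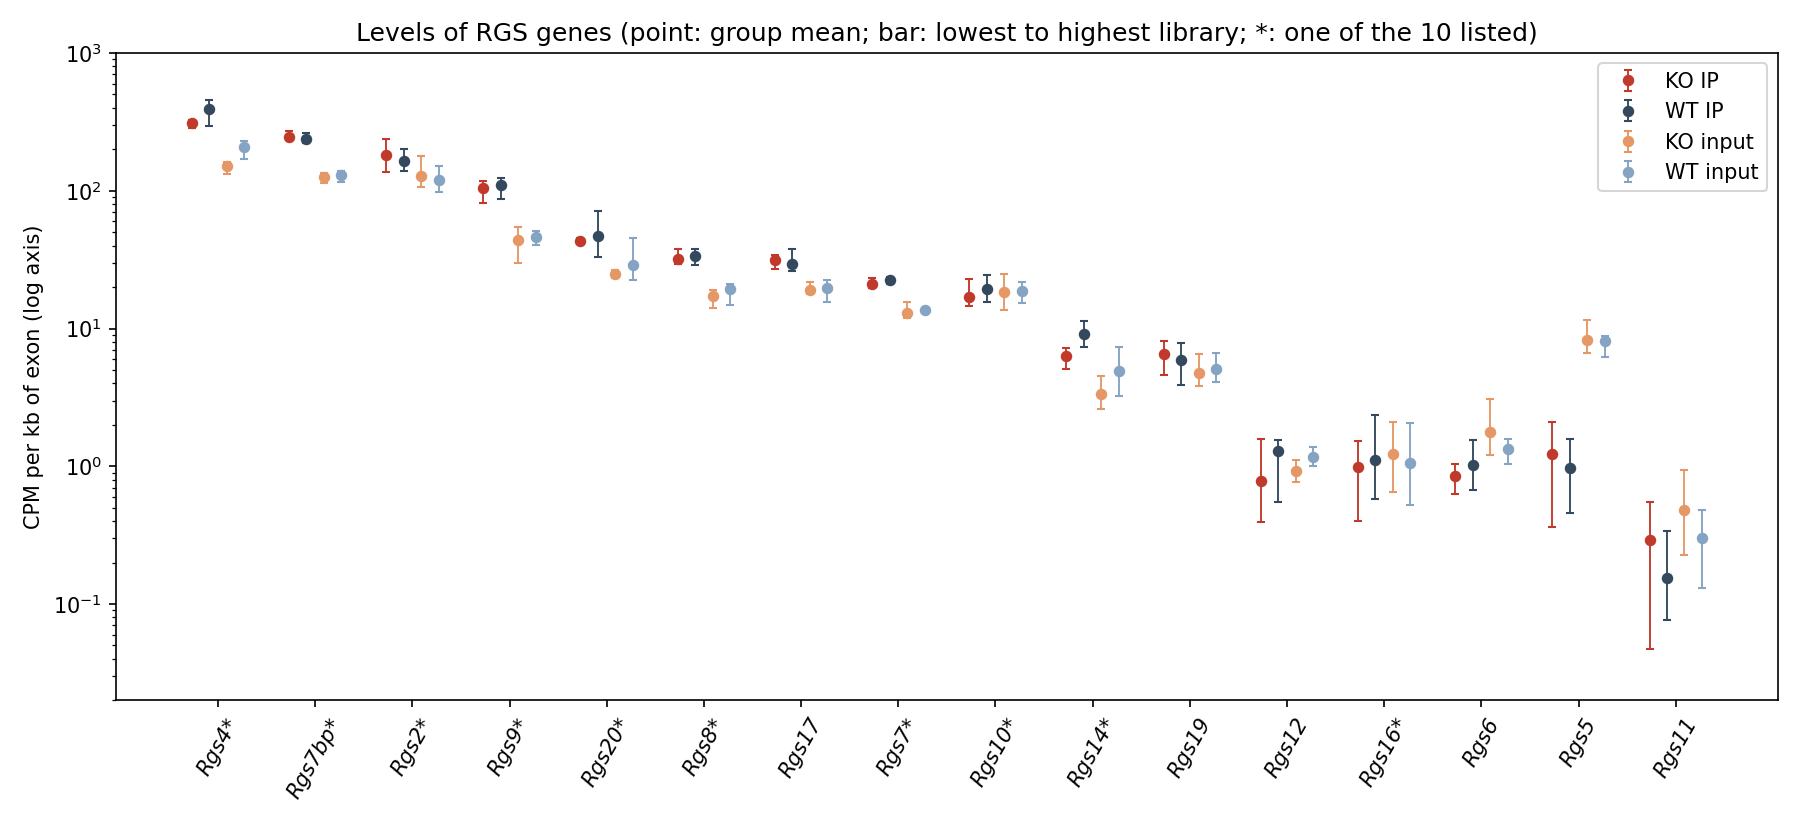
Levels of RGS genes with at least 1 read in every library, in CPM per kb of exon on a log axis; points are group means, bars run between the lowest and highest library, and a star marks the 10 listed genes. Rgs4 leads in all 4 groups, for example at 309 CPM per kb in KO IP and 391 in WT IP, and Rgs16 is the lowest of the starred genes.

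Of the other 12 RGS genes listed, Rgs17 and Rgs19 had the highest levels in IP, at 31.3 ± 2.64 CPM per kb in KO and 29.5 ± 4.51 in WT for Rgs17, and at 6.49 ± 1.35 and 5.88 ± 1.92 for Rgs19. The plot of levels per kb shows these beside the others. Rgs1, Rgs18 and Rgs21 had too few counts to be tested in any comparison.

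The annotated genes lie on few chromosomes. In GENCODE vM21 on the GRCm38/mm10 build, Rgs4 spans chr1:169741477-169747642 and Rgs2 spans chr1:143999338-144004161, both on the minus strand, and Rgs7, Rgs8, Rgs16 and Rgs20 are also on chromosome 1. Rgs14 spans chr13:55369732-55384687 on the plus strand, and chromosome 13 also holds Rgs7bp. Rgs9 is at chr11:109225355-109298129 and Rgs10 at chr7:128373621-128418758, both on the minus strand. The libraries do not mark the strand, so reads from overlapping exons of 2 genes cannot be told apart. Such overlap covered 10.1% of the exon bases of Rgs16 (with Gm28513), 5.94% of Rgs20 (with Atp6v1h and Gm17101) and 0.726% of Rgs8 (with Gm29529), and none of the other 7 genes had any.

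Promoter windows from RefSeq (GRCm38.p6) matched 8 of the 10 genes; Rgs14 and Rgs20 are named only. Rgs4 and Rgs2 are shown because they are the most abundant R4 genes and their genotype fold changes lay on opposite sides of 0. Each window runs from 250 bases before the annotated start to 50 bases after it, on the gene's strand, and capitals mark TGACG on either strand (read as CGTCA on the other) and TATAAA on the gene's strand. The searched motifs do not overlap each other in letters.
Rgs4, chr1:169747593-169747892, minus strand: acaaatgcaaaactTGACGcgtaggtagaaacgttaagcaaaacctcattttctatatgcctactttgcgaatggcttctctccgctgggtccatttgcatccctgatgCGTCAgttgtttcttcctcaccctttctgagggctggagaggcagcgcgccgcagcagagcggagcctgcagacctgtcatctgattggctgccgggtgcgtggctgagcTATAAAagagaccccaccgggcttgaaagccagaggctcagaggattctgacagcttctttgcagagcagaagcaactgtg
Rgs2, chr1:144004100-144004399, minus strand: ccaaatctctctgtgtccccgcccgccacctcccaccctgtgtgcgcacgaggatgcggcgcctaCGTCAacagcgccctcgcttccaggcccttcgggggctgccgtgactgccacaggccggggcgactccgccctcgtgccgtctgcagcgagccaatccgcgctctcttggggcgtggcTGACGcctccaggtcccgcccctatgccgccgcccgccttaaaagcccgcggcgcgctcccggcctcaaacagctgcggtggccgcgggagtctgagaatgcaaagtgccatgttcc
TGACG is the core of the cAMP response element. It stood at 2 places in both windows, 236 and 141 bases before the start of Rgs4 and 185 and 67 bases before that of Rgs2. At least 1 copy was present in 20.8% of the 32851 promoter windows searched, so a single copy is common. The share of windows with 2 copies was not counted. TATAAA stood 31 bases before the start of Rgs4 and not in the window of Rgs2, and it was present in 8.32% of all windows. Of the other 6 genes with a window, Rgs7bp and the first of 3 starts of Rgs8 held 1 TGACG each and Rgs9 held a TATAAA 195 bases before its start. Rgs4 and Rgs2 share the TGACG letters, but they were picked partly for the opposite signs of their genotype values, given below. The KO over WT value of Rgs2 was not separated from 0. Its confidence interval was -0.15 to 0.46 in IP and -0.17 to 0.40 in input. Whether the letters bear on the genotype values was not tested.

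Most of the transcripts have short coding regions. The longest coding region annotated was 615 bases for Rgs4, 633 for Rgs2, 603 for Rgs16, 540 for Rgs8, 543 for Rgs10, 771 for Rgs7bp and 1116 for Rgs20, all under the median of 1422 bases over 14070 coding genes tested. Rgs7 at 1431 bases, Rgs14 at 1641 and Rgs9 at 2025 were above that median. The GC content of these transcripts ran between 42.6% for Rgs7bp and 57.6% for Rgs14.

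The first comparison, KO against WT in IP, asks whether ribosome-bound mRNA of D1 neurons changed with the loss of Fmr1. Rgs14 and Rgs4 were the genes with the largest differences among the 10, both at a lower level in KO, and neither passed the test over all genes. Rgs14 had 27.0, 26.4, 21.5, 27.7 and 30.5 CPM in the KO IP libraries (animals 2, 3, 9, 10 and 11), against a lowest value of 30.9, a median of 38.5 and a highest of 48.1 CPM in the 6 WT IP libraries. Every KO library lay below every WT library, with a narrow gap between KO animal 11 and WT animal 14. The log2 fold change was -0.54 ± 0.12 (SE; 95% interval -0.80 to -0.28), with an unadjusted p of 3.81e-04 and a Benjamini-Hochberg adjusted p of 0.176 by edgeR's quasi-likelihood test over 14456 genes, in which it ranked 29 by p. The authors' deposited table gave Rgs14 a log2 fold change of -0.54 as KO over WT with an adjusted p of 0.0091, past the threshold of 0.05 that 81 genes of that table met. In bulk samples fewer cells of a type and less RNA per cell cannot be told apart.

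Rgs4 had 1015, 883, 896, 981 and 1005 CPM in the KO IP libraries (animals 2, 3, 9, 10 and 11), against a lowest value of 920, a median of 1223 and a highest of 1415 CPM in WT IP. The groups overlapped through WT animal 12, whose value fell among those of KO, while the other 5 WT libraries lay above all KO libraries. The log2 fold change was -0.34 ± 0.09 (95% interval -0.53 to -0.15), with an unadjusted p of 0.00143 and an adjusted p of 0.271 by edgeR's quasi-likelihood test. Animals 3, 9 and 12, the lowest of their genotypes for Rgs4, were among the 4 with high cortical markers. Without those 4 animals the log2 fold change of Rgs4 in IP was -0.39 (adjusted p = 0.126), and that of Rgs14 was -0.48 (adjusted p = 0.422). The authors' deposited table gave Rgs4 an adjusted p of 0.0813 in IP.

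None of the 10 genes was called in IP, where the edgeR test called 0.0553% of all genes tested, all lower in KO. At an unadjusted p under 0.05 there were 2 of the 10 (Rgs4 and Rgs14) and 7.62% of all genes. DESeq2 called 1 of the 10 (Rgs14, adjusted p = 0.0124), beside 83 of all genes, and limma-voom called 0 of the 10. Groups that did not overlap were found for 0.968% of all genes and for 1 of the 10. The fold change was negative for 8 of the 10, with a median of -0.10, beside a median of 0.00 over all genes tested. The 8 genes other than Rgs4 and Rgs14 ranged between -0.19 for Rgs10 and 0.15 for Rgs2, with adjusted p-values of at least 0.823.

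The precision differed by gene, as the plot of fold changes shows. Apart from that of Rgs4, the narrowest 95% intervals in IP were those of Rgs7bp (-0.08 to 0.17), Rgs7 (-0.25 to 0.05), Rgs8 (-0.24 to 0.11) and Rgs9 (-0.28 to 0.12). None of these reaches the fold change of Rgs4. Wider intervals were those of Rgs10 (-0.49 to 0.11), Rgs20 (-0.42 to 0.20) and Rgs2 (-0.15 to 0.46). Rgs16, with 13 to 172 reads in KO IP and 25 to 463 in WT IP, had an interval of -1.09 to 0.75, which spans the difference found for Rgs14. Its coefficient of variation was 51.3% in KO IP and 63.8% in WT IP, the highest of the 10 in both.

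**Figure D2:**
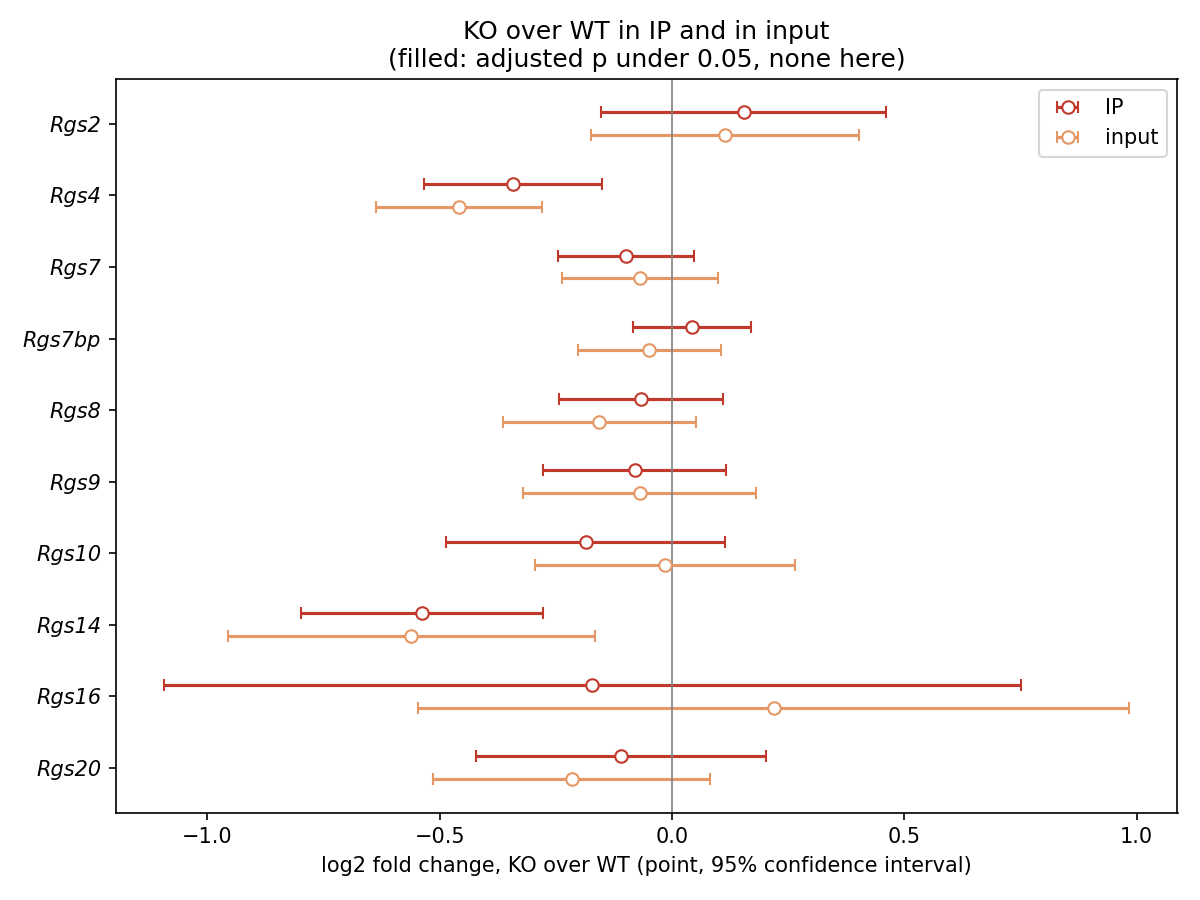
Log2 fold change of KO over WT for the 10 genes in IP (red, above) and input (orange, below), with 95% confidence intervals; open points did not pass an adjusted p of 0.05. Rgs4 (-0.34 in IP, -0.46 in input) and Rgs14 (-0.54 and -0.56) are the only genes whose intervals lie below 0 in both assays.

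In input, which holds RNA of all striatal cells, Rgs4 gave the clearest difference. It had 487, 412, 468, 464 and 501 CPM in the KO input libraries (animals 2, 3, 9, 10 and 11), against a lowest value of 529, a median of 649 and a highest of 709 CPM in WT input. Every KO library lay below every WT library, the nearest being WT animal 12. The means were 466 ± 33.9 CPM in KO and 641 ± 67.4 CPM in WT (SD, n = 5 and 6). The log2 fold change was -0.46 ± 0.08 (95% interval -0.64 to -0.28), with an unadjusted p of 3.81e-05, which ranked 6 of 16429 genes, and an adjusted p of 0.104 by edgeR's quasi-likelihood test. The authors' deposited table gave -0.45 as KO over WT with an adjusted p of 0.00287, among 42 genes under 0.05.

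The call for Rgs4 in input turned on choices that left its fold change nearly in place. It passed with DESeq2 (-0.45, adjusted p = 0.00271), with no filter on low counts (-0.46, 0.0275), without WT animal 12 (-0.51, 0.0179), without animals 1, 3, 9 and 12 (-0.48, 0.0484), and with the cortical marker score as a covariate (-0.43, 0.0362). These were 5 of 20 alternatives, and Rgs4 was not called in the rest. Over all 20 the adjusted p ranged between 0.00271 and 0.392, and the fold change between -0.51 and -0.42. Listed D1 markers were also at lower levels in KO input, with negative fold changes for 8 of 8, a median of -0.27 and none called. Their summed level was 435 to 650 CPM in KO input and 590 to 752 CPM in WT input, so the ranges overlapped, and all 8 had reads. Without animals 1, 3, 9 and 12 it was 626 to 650 CPM in KO input and 694 to 752 CPM in WT input, and these ranges did not overlap. All 6 tested D2 markers had negative fold changes in KO input too (median -0.13, none called), and the part of such shifts in the value of Rgs4 was not tested.

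Rgs14 in input had 15.8, 11.2, 11.1, 13.5 and 19.1 CPM in KO (animals 2, 3, 9, 10 and 11), against a lowest value of 13.7, a median of 19.6 and a highest of 31.3 CPM in WT. The groups overlapped, since KO animals 2 and 11 exceeded WT animal 12 and KO animal 11 also exceeded WT animal 1. WT animal 20 was the highest. The log2 fold change was -0.56 ± 0.19 (95% interval -0.96 to -0.17), as large as in IP but with a larger error, and the adjusted p was 0.543 by edgeR's quasi-likelihood test. The authors' deposited table gave 0.321. Without animals 1, 3, 9 and 12 the groups did not overlap, narrowly, with a highest KO value of 19.13 and a lowest WT value of 19.15 CPM. The log2 fold change of Rgs14 in input was then -0.52, with an adjusted p of 0.3 by edgeR's quasi-likelihood test. None of the 10 genes was called in input, where 0.0183% of all genes were, all lower in KO. At an unadjusted p under 0.05 there were 2 of the 10 (Rgs4 and Rgs14) and 6.84% of all genes. DESeq2 called 1 of the 10 (Rgs4), beside 52 of all genes, and limma-voom called 0 of the 10. Groups that did not overlap were found for 0.633% of all genes and for 1 of the 10. The fold change was negative for 8 of the 10, with a median of -0.07 beside 0.00 over all genes tested, and the 8 genes other than Rgs4 and Rgs14 ranged between -0.22 for Rgs20 and 0.22 for Rgs16.

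**Figure D3:**
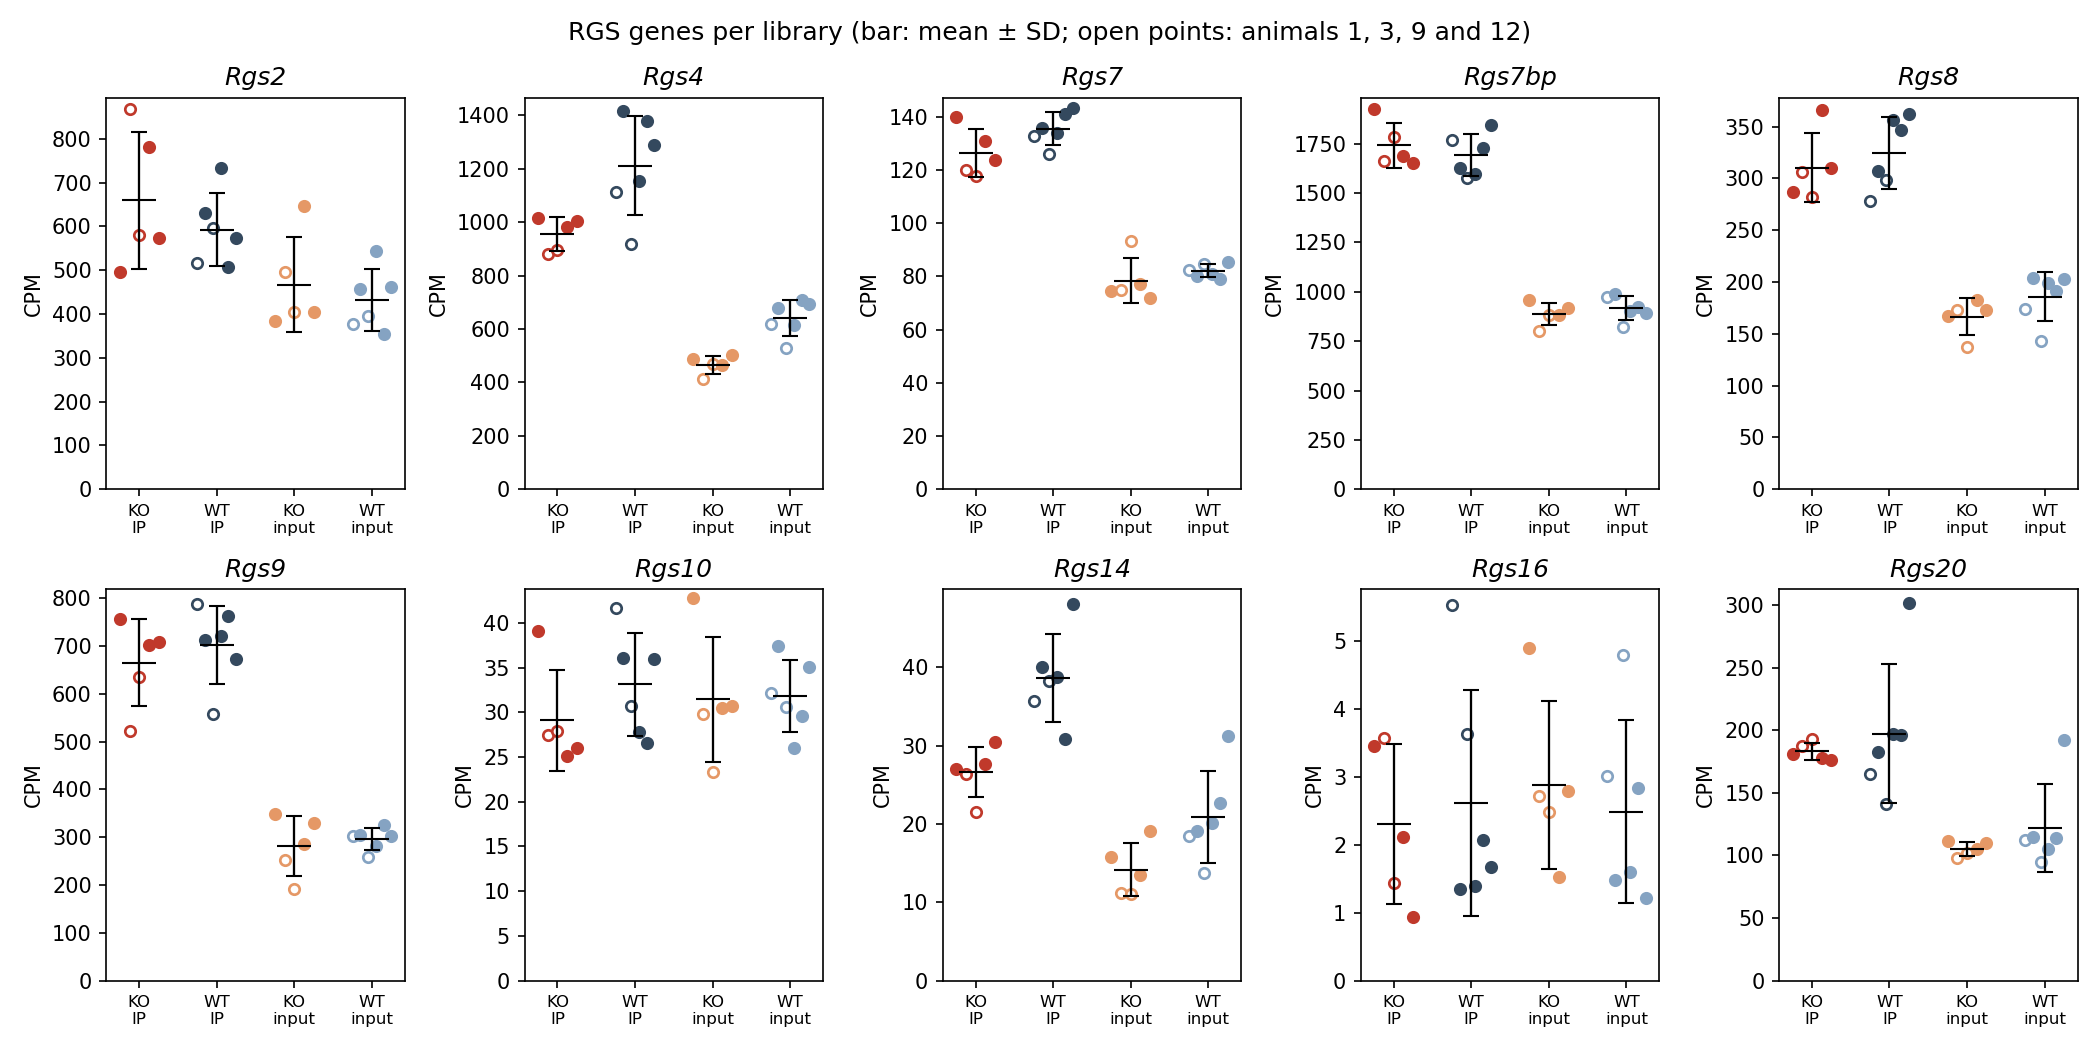
CPM of each of the 10 genes in every library, scaled within an assay so that IP and input heights are not compared; columns are KO IP, WT IP, KO input and WT input, horizontal bars are means with SD (n = 5 KO and 6 WT), and open points are animals 1, 3, 9 and 12. Rgs14 in IP (highest KO 30.5, lowest WT 30.9) and Rgs4 in input (highest KO 501, lowest WT 529) are the panels in which KO and WT points do not overlap.

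In KO IP, Rgs2 was the most variable of the 4 genes with the highest levels. It had 496, 868, 580, 781 and 574 CPM in KO IP (animals 2, 3, 9, 10 and 11), against a lowest value of 507, a median of 585 and a highest of 733 CPM in WT IP. The groups overlapped widely. Its coefficient of variation was 23.8% in KO IP and 14.05% in WT IP, against 6.56% and 6.29% for Rgs7bp. Rgs9 had 758, 523, 635, 702 and 710 CPM in KO IP, against a lowest value of 559, a median of 718 and a highest of 789 CPM in WT IP, and its lowest values came from KO animal 3 and WT animal 12. Rgs7bp had 1655 to 1925 CPM in KO IP and 1578 to 1844 CPM in WT IP, and Rgs7 had 118 to 140 and 126 to 143. Rgs8 had 282 to 366 CPM in KO IP and 278 to 362 CPM in WT IP, and Rgs10 had 25.1 to 39.1 and 26.5 to 41.7. These 4 genes covered nearly the same range in both genotypes. Rgs20 had 176 to 193 CPM in KO IP and 141 to 302 CPM in WT IP, where WT animal 20 stood alone and the next WT library had 197. Rgs16 had 0.938 to 3.58 CPM in KO IP and 1.36 to 5.54 CPM in WT IP.

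The second question was how each mRNA stood on the tagged ribosomes relative to the lysate. Among the 10 genes, 6 were higher in IP than in input in both genotypes (Rgs4, Rgs7, Rgs7bp, Rgs8, Rgs9 and Rgs14), Rgs10 was lower in both, and Rgs2, Rgs16 and Rgs20 were not called. Over all genes, edgeR's quasi-likelihood test called 47.3% in KO (20.9% higher and 26.4% lower) and 49.6% in WT (21.8% higher and 27.8% lower). The median log2 fold change of the 10 was 0.42 in KO and 0.35 in WT, beside a median over all genes of -0.11 in both. IP ratios compare counts relative to library size, scaled over all 22 libraries. Mitochondrial ribosomal RNA took 0.420% to 0.904% of IP counts and 25.1% to 53.2% of input counts. Leaving out its genes mt-Rnr1 and mt-Rnr2 changed no IP over input call among the 10.

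Rgs9 rose the most. Its IP over input ratio was 1.61, 1.55, 2.45, 1.85 and 1.59 in KO animals 2, 3, 9, 10 and 11, and ran between 1.59 and 2.002 in the 6 WT animals. It was above 1 in 11 of 11 animals, and IP and input libraries did not overlap in either genotype, as held for 34.2% of all genes in KO and 30.2% in WT. The log2 fold change was 0.81 ± 0.13 in KO (adjusted p = 6.92e-06) and 0.84 ± 0.12 in WT (adjusted p = 1.06e-06). This is below the median of the listed D1 markers in each genotype.

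Rgs4 rose by 0.61 ± 0.10 in KO (adjusted p = 9.52e-06) and 0.51 ± 0.09 in WT (adjusted p = 3.15e-05) on the log2 scale. Its ratio was 1.55, 1.61, 1.42, 1.59 and 1.48 in KO animals 2, 3, 9, 10 and 11 and ran between 1.28 and 1.55 in WT, lowest in animal 12. The ranges of the genotypes overlapped. Rgs7bp rose by 0.55 ± 0.07 in KO and 0.47 ± 0.06 in WT, Rgs8 by 0.47 ± 0.10 and 0.39 ± 0.09, and Rgs7 by 0.27 ± 0.07 and 0.31 ± 0.07. All 3 had adjusted p-values of 0.00429 or less, and the ratio was above 1 in 11 of 11 animals for Rgs7bp and Rgs8 and in 10 of 11 for Rgs7, the exception being KO animal 9.

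Rgs14 rose by 0.48 ± 0.18 in KO (adjusted p = 0.0244) and 0.47 ± 0.16 in WT (adjusted p = 0.0154), with ratios above 1 in 11 of 11 animals and IP and input ranges that overlapped. This call was lost without animals 1, 3, 9 and 12 (0.38 in KO, adjusted p = 0.116, and 0.34 in WT, adjusted p = 0.093). It was also lost in KO without KO animal 3 (0.0944) or 10 (0.0771), and in WT without WT animal 4 (0.0516) or 12 (0.0557). Rgs10, the other R12 gene, fell by 0.53 ± 0.15 in KO (adjusted p = 0.00482) and by 0.35 ± 0.14 in WT (adjusted p = 0.0361), with a ratio below 1 in 11 of 11 animals. In WT the call was lost with no filter on low counts, with limma-voom and without WT animal 4, 12, 13, 14 or 20, with adjusted p-values of up to 0.0951.

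RGS10 is known from microglia as well as neurons, and all 8 listed microglial markers were lower in IP, with medians of -5.25 in KO and -5.03 in WT. Their summed level was 4.76 to 10.2 CPM in KO IP and 8.47 to 13.4 CPM in WT IP, against 92.6 to 128 CPM in KO input and 82.3 to 126 CPM in WT input. The fold change of Rgs10 was smaller in size than that of any of these markers, the least of which was -1.44 in KO and -0.81 in WT, and the part of microglial RNA in it was not tested.

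Rgs20 shows what pairing by animal does. The unpaired test gave 0.37 ± 0.17 in KO (adjusted p = 0.0733) and 0.28 ± 0.15 in WT (adjusted p = 0.142), while the ratio was above 1 in 11 of 11 animals. With the animal as a block, which matches each IP library to the input of its own lysate, it was called in KO (0.37, adjusted p = 8.36e-05) and in WT (0.28, adjusted p = 0.000656), and the count of called genes became 8 of 10 in each genotype, beside 51.4% of all genes in KO and 53.8% in WT under the same block. WT animal 20 had an Rgs20 level far above the other WT animals in both assays. Without it the unpaired test gave adjusted p-values of 0.000611 in KO and 0.00479 in WT. In KO, Rgs20 was also called unpaired with limma-voom (0.0485) and without WT animal 12 (0.0411).

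Rgs2 stood almost level in IP and input, with a log2 fold change of 0.07 in KO (95% interval -0.26 to 0.41) and 0.04 in WT (-0.26 to 0.35). Rgs16 had -0.74 in KO (-1.67 to 0.19) and -0.34 in WT (-1.18 to 0.51), too imprecise to place. In the plot of IP over input, the RGS genes outside the list of 10 spread much more widely.

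**Figure D4:**
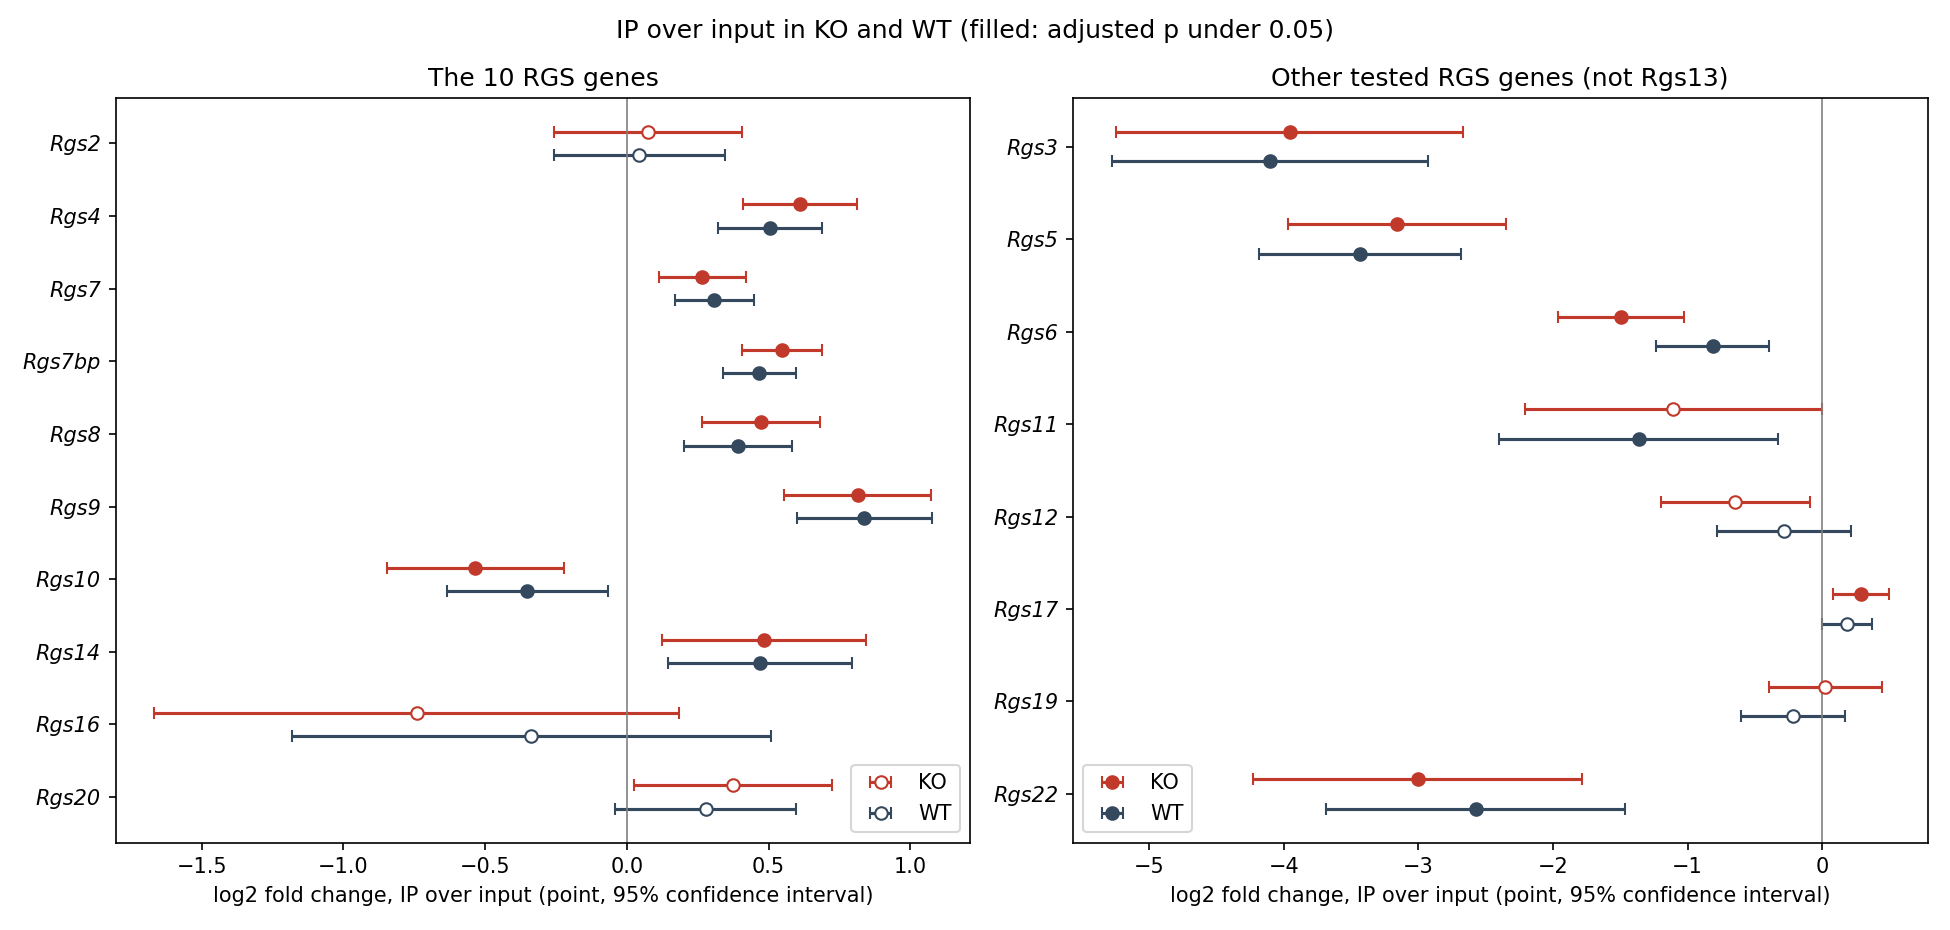
Log2 fold change of IP over input in KO (red, above) and WT (dark blue, below) with 95% confidence intervals, for the 10 genes (left) and for other tested RGS genes (right; the horizontal scales differ); filled points passed an adjusted p of 0.05. Of the 10, Rgs9 is highest (0.81 in KO, 0.84 in WT) and Rgs10 is the only one called lower, while Rgs3 and Rgs5 on the right lie below -3.

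The genotypes did not differ detectably in IP over input. The KO minus WT difference ranged between -0.40 for Rgs16 and 0.10 for Rgs4, and no gene of the 10 or of all 17311 tested was called (0% of genes) by edgeR's quasi-likelihood test, with every adjusted p among the 10 at 1. At an unadjusted p under 0.05 there were 710 genes and 0 of the 10, and DESeq2 called 3 genes, with 0 of the 10. The 95% interval of the difference was -0.17 to 0.38 for Rgs4 and -0.47 to 0.50 for Rgs14.

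Partners and targets of the RGS proteins were read from hand-made lists. In KO against WT none of the tested members of these lists was called in IP or in input: other RGS genes (7 tested in IP and 8 in input), R7 partners (2 and 2), G-alpha subunits (11 and 13), G-beta and G-gamma subunits (12 and 13), GoLoco and exchange factors (4 and 5), receptor kinases and other RGS-box genes (14 and 14), Gi- and Gq-coupled receptors (18 and 17) and effectors (12 and 12). DESeq2 called 1 R7 partner and 1 receptor in input, beside 52 of all genes. Gpr158, an orphan receptor gene whose product binds R7 complexes, had -0.28 ± 0.10 in IP (adjusted p = 0.48) and -0.30 ± 0.07 in input (adjusted p = 0.352). It averaged 519 ± 57.5 CPM in KO IP and 632 ± 87.6 CPM in WT IP, and 222 ± 15.7 CPM in KO input and 275 ± 17.0 CPM in WT input, where the highest KO library (248.9) was just above the lowest WT library (248.3). The cannabinoid receptor gene Cnr1 had -0.27 ± 0.07 in input (adjusted p = 0.379), and the adenylyl cyclase gene Adcy5 had -0.19 ± 0.08 in IP (adjusted p = 0.587) and -0.27 ± 0.11 in input (adjusted p = 0.635).

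In IP over input the same lists divided. Of 3 R7 partners tested, 2 were higher in each genotype: Gpr158 by 0.80 ± 0.09 in KO and 0.79 ± 0.08 in WT, and Gnb5 by 0.36 ± 0.09 and 0.29 ± 0.08. The other, Gpr179, had -1.23 in KO and -1.47 in WT and was not called. Of 13 G-alpha genes, 5 were higher and 7 lower in KO, and 4 higher and 7 lower in WT. Gnal, which encodes the stimulatory subunit that couples D1 receptors, rose by 0.94 ± 0.09 in KO and 0.77 ± 0.08 in WT, while Gnai2 fell by 1.31 ± 0.12 and 1.34 ± 0.11. Of 13 G-beta and G-gamma genes 4 were higher and 5 lower in each genotype, with Gnb4 at 1.02 ± 0.12 in KO and 0.96 ± 0.11 in WT.

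Of 18 receptor genes 9 were higher and 2 lower in each genotype, led by the muscarinic receptor gene Chrm4 (1.999 ± 0.16 in KO and 2.10 ± 0.15 in WT), itself on the D1 marker list, and by the D2 receptor gene Drd2 (-3.54 ± 0.16 and -3.65 ± 0.15), itself on the D2 list. Of 12 effector genes 4 were higher and 4 lower, with Plcb1, a Gq target, at 1.23 ± 0.07 in KO and 1.18 ± 0.07 in WT and Adcy5, the main striatal adenylyl cyclase, at 0.85 ± 0.10 and 0.78 ± 0.09. Of 14 receptor kinase and RGS-box genes, 5 were higher and 2 lower in KO and 6 higher and 1 lower in WT. Of 5 GoLoco and exchange factor genes, 1 was higher and 2 lower in KO and 1 higher and 1 lower in WT, with the chaperone gene Ric8b at 0.65 ± 0.09 and 0.50 ± 0.08. Of 9 other RGS genes tested, 1 was higher and 4 lower in KO and 5 were lower in WT. Rgs5, known as a pericyte gene, fell by 3.16 ± 0.39 in KO and by 3.44 ± 0.36 in WT, Rgs3 by 3.96 ± 0.63 and 4.10 ± 0.57, and Rgs6 by 1.5 ± 0.23 and 0.81 ± 0.20. These counts stand beside the shares of all genes given above for IP over input.

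The genes whose levels most resembled those of each RGS gene were ranked by Pearson correlation of log2 CPM over the 22 libraries, among 8077 genes. The libraries share the IP and input contrast, their depth and their animals, so the correlations are descriptions. Rgs4 was closest to Clspn (r = 0.96), Pdzd2 (0.94) and Ddx6 (0.92), and Pdzd2 was also the closest to Rgs14 (0.90), followed by Man1a (0.88) and Zfp831 (0.87). Rgs9 was closest to Tiam2 (0.98), Pde1b (0.98) and Rarb (0.98), and Rgs7bp to Camk4 (0.97), Pdpk1 (0.97) and Ppp3ca (0.97). Rgs8 was closest to Elmod1 (0.96), Rgs7 to Plaa (0.94), Rgs20 to Elmo1 (0.92) and Rgs10 to Kctd4 (0.86). Rgs2 and Rgs16 had no close match, with highest values of 0.75 (Zfp420) and 0.76 (Tango2).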

How the data were processed

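Counts are whole numbers of reads per gene symbol, as the authors deposited them, unnormalised, for 22 libraries; STAR and featureCounts, and the mm10 genome, are named without versions in the submitters' processing notes. The authors' deposited tables of the 2 assays, with DESeq2 named in the same notes, give each gene a log2 fold change and p-values, raw and adjusted; the log2 values run WT over KO and are printed here as KO over WT, before shrinkage. Per the labels' protocols, libraries were not strand-specific, and all pulldowns and sequencing were in a single batch.

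KO against WT was fitted per assay, and IP over input and its genotype difference over all 22 libraries in 4 groups. All used edgeR 4.0.16 in R 4.3.3 (TMM, filterByExpr, robust quasi-likelihood tests, 2-sided, Benjamini-Hochberg over all genes tested, threshold 0.05). DESeq2 1.42.0 and voom in limma 3.58.1 were alternatives. CPM values are scaled by TMM within an assay, and over all 22 libraries for ratios and correlations (prior count 2 on the log2 scale). No 2 libraries held identical values. The p-values of KO against WT measure the spread between animals of this batch. Those of IP over input and its genotype difference treat an animal's IP and input libraries as independent, except with the animal as a block. All 4 groups share a spread there, so an animal of either genotype can move the p-values of both.

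IP and input libraries of a number come from the same animal's lysate. Their deviations from group means correlated at 0.247 to 0.523 over 8299 genes. Among input libraries of the same genotype, each IP library correlated best with its own number in 11 of 11 animals, so the block is read as a pairing.

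The 10 genes and all lists were chosen with earlier results of these data known. The text names all 10 genes, up to 4 members of a list by smallest p, and up to 3 genes most like each of the 10 with a mean CPM of at least 10; Rgs17 and Rgs19 were named after their values were seen.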

Additional observations from a re-analysis of the deposited data

Results flagged for a closer look

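Each gene's CPM per group and its log2 IP over input per genotype were examined for a single value far from the rest. Of these 60 sets of values 4 were picked out, where chance picks out about 1 in 20. Rgs20 in WT animal 20 had 302.1 CPM in IP, where the next highest WT library had 197.2, and 192.3 CPM in input, where the next had 114.7, so the same animal stood apart in both libraries of its lysate. Rgs10 in KO animal 2 had 39.08 CPM in IP, with the next KO library at 27.89. Rgs7 in KO animal 9, which also had high cortical markers, had 93.07 CPM in input, with the next KO library at 77.08.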

How the results depend on the processing

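Counts of called genes among the 10 changed under these settings. In IP, KO against WT, the count was 1 with DESeq2. In input it was 1 with no filter on low counts, 1 with DESeq2, 1 without animals 1, 3, 9 and 12, 1 with the cortical marker score as a covariate, and 0 to 1 on leaving out each animal, all through Rgs4. Leaving out each animal gave 0 to 0 in IP, 6 to 8 for IP over input in KO, 5 to 7 in WT, and 0 to 0 for the difference between genotypes. With the animal as a block IP over input gave 8 in each genotype and changed no call but that of Rgs20. The other settings that changed a count there were no filter on low counts (6 in WT, without Rgs10), limma-voom (6 in WT, without Rgs10, and 8 in KO, with Rgs20) and leaving out animals 1, 3, 9 and 12 (6 in each genotype, without Rgs14). Over all genes, calls were 4 to 83 in IP (8 in the reported fit, 83 with DESeq2, 4 with limma-voom, 13 in the fit over 22 libraries), 2 to 52 in input (3 reported, 52 with DESeq2, 5 with no filter, 6 in the fit over 22 libraries, 7 without animals 1, 3, 9 and 12) and 0 to 3 for the difference (0 reported, 3 with DESeq2). Leaving out each animal gave 4 to 8 in IP, 2 to 7 in input (7 without WT animal 12) and 0 to 2 for the difference (2 without WT animal 1 or KO animal 3). Called effectors in KO were 8 for IP over input and 5 without KO animal 11.

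Signs reversed only for genes that were not called. In IP, leaving out each animal moved Rgs16 over -0.38 to 0.22 and Rgs20 over -0.19 to 0.052, and without animals 1, 3, 9 and 12 Rgs16 was 0.44 and Rgs9 0.0078. In input, leaving out each animal moved Rgs16 over -0.060 to 0.52, Rgs10 over -0.15 to 0.084, Rgs9 over -0.16 to 0.050 and Rgs2 over -0.027 to 0.19. Without those 4 animals Rgs10 was 0.12 and Rgs9 0.085, and with the covariate Rgs10 was 0.0081. In IP over input in KO, Rgs2 moved over -0.022 to 0.15 and was -0.057 without those 4 animals. For the difference between genotypes, leaving out each animal moved Rgs14 over -0.069 to 0.10, Rgs9 over -0.12 to 0.019, Rgs2 over -0.068 to 0.10 and Rgs7 over -0.098 to 0.053. There limma-voom gave Rgs14 -0.021, the block gave Rgs9 0.0020, and without those 4 animals Rgs2 was -0.072, Rgs7 0.042 and Rgs20 -0.038. The cause of these changes was not tested. Rgs16 had the fewest reads of the 10, 13 in its lowest library.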
